A study of Mus musculus with 10 samples.

Results

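The adult alpha-globin genes Hba-a1 and Hba-a2, the adult beta-globin genes Hbb-bs and Hbb-bt, and Alas2 were followed in RNA of sorted cortical neurons from mouse pups. The 5 genes were taken by symbol from a deposited table of 55573 gene IDs, and each symbol matched 1 row. The study compared 5 Ctrl pups (NexCre/+, Cdk7+/+, R26EYFP/+) with 5 Cdk7_KO pups (NexCre/+, Cdk7lox/lox, R26EYFP/+) on postnatal day 3, with 1 sorted preparation per mouse. Both genotypes carried 1 Cre allele and 1 EYFP reporter allele. Cre was driven from Nex (Neurod6), a gene of postmitotic cortical excitatory neurons, so that those neurons are the cells meant to carry EYFP and to lose Cdk7. Cortex was dissociated and EYFP-positive cells were sorted. Cdk7 encodes a kinase of the general transcription factor TFIIH.

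Haemoglobin is a tetramer of alpha and beta chains, each holding a heme, and its mRNA is among the most abundant in immature red cells. Mice of the Hbb-s haplotype make the beta chain from Hbb-bs and Hbb-bt, while Hbb-y, Hbb-bh1 and the alpha-like Hba-x serve the embryo. Alas2 is the red-cell form of aminolevulinate synthase, the first enzyme of heme synthesis, and Alas1 is its counterpart in other cells. Globin RNA in brain preparations is commonly associated with blood held in vessels.

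The members of each chain pair are nearly the same gene, which bears on every value given for a single copy. In GENCODE M21 (GRCm38), Hba-a1 (ENSMUSG00000069919) lies on chromosome 11 from 32283511 to 32284465 on the plus strand, and Hba-a2 (ENSMUSG00000069917) from 32296489 to 32297298 on the same strand. Hbb-bs (ENSMUSG00000052305) lies on chromosome 7 from 103826534 to 103828096, and Hbb-bt (ENSMUSG00000073940) from 103812524 to 103813996, both on the minus strand. Alas2 (ENSMUSG00000025270) lies on chromosome X from 150547375 to 150570638 on the plus strand. Each globin transcript has 3 exons and that of Alas2 has 11. Over 426 coding bases, Hba-a1 and Hba-a2 differed at 1 (C381T, counted from the first base of the start codon, Hba-a1 first). Hbb-bs and Hbb-bt differed at 1 of 441 (C417T, Hbb-bs first). The coding stretches around these bases are shown because a read within the coding part can be assigned to a copy only if it covers the base in capitals.
Hba-a1: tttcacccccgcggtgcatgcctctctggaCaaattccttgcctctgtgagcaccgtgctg
Hba-a2: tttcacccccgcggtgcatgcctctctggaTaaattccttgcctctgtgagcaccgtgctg
Hbb-bs: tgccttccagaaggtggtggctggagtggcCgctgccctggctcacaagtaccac
Hbb-bt: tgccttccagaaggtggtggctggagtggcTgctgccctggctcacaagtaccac

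The 50-base windows of each reference transcript were compared with the GENCODE transcripts of all other Hba, Hbb, Hbq1 and Alas genes. Windows found in none of these made up 32.5% for Hba-a1, 13.1% for Hba-a2, 34.2% for Hbb-bs and 41.7% for Hbb-bt. The share was 100% for Alas2. These shares depend on the transcript models, and that of Hba-a1 has 196 bases before its start codon against 35 for Hba-a2. How reads that match both copies were handled is not given in the sources used here, so the split between copies is uncertain. The sum over a pair does not depend on it unless such reads were dropped or were counted for both copies.

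The 250 bases before the RefSeq start (GRCm38.p6) are shown for 1 alpha gene, 1 beta gene and Alas2, because these genes had similar differences between genotypes. They cover chr11:32283422-32283671 (plus strand), chr7:103827929-103828178 (minus strand) and chrX:150547167-150547416 (plus strand). Capitals mark matches on either strand to the core of the TATA box, spelled TATAA, to the box named CCAAT, to the box bound by Klf-type factors, spelled CACCC, and to the core of the GATA site, spelled GATAA. These motifs were chosen after the sequences had been seen. GENCODE gene models of Hba-a1, Hbb-bs and Alas2 start within these windows.
Hba-a1: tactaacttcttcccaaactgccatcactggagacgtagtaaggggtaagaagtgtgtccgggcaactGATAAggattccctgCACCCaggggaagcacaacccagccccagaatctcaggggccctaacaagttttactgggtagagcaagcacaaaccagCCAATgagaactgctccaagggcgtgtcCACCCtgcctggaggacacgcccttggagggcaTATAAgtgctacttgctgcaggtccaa
Hbb-bs: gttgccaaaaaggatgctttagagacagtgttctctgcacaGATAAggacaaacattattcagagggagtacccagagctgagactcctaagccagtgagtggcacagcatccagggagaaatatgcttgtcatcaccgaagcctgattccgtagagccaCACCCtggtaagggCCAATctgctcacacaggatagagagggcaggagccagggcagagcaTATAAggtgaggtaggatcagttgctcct
Alas2: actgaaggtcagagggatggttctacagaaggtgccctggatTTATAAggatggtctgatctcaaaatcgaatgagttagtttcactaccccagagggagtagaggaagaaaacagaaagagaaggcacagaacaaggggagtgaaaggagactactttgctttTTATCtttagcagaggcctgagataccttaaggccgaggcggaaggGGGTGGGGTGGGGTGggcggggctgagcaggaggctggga

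The window of Hba-a2 shared an unbroken run of 247 bases with that of Hba-a1, while the longest run shared by Hbb-bs and Hbb-bt was 14 bases. All 4 globin windows held each of the 4 motifs, with a TATAA starting between 27 and 30 bases before the start. The Alas2 window held 3 matches to the CACCC box and 1 to the GATA core, all on the minus strand, a TATAA on either strand, and no match to the CCAAT box. Of 32851 RefSeq promoter windows of the same length, 22.8% held TATAA, 33.8% CCAAT, 52% CACCC and 22.6% GATAA. These matches describe letters only, and the pair of TATAA matches in Alas2 overlap.

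Globin RNA was a trace in every library and its mean was lower in Cdk7_KO. The 4 globin genes together made up 142.0 ± 52.7 CPM (a gene's counts scaled to a common library total, mean ± SD over 5 libraries) in Ctrl and 57.1 ± 25.8 CPM in Cdk7_KO, which is 40.2% of the mean in Ctrl. In percent of all counts these means were 0.0142 and 0.00571. Summed globin CPM was 177.8, 79.9, 90.5, 168.5 and 193.3 in Ctrl 1, 3, 4, 5 and 6, and 86.6, 32.6, 48.9, 35.0 and 82.2 in Cdk7_KO 1 to 5. In all, 3 Cdk7_KO libraries lay below every Ctrl library, and Cdk7_KO 1 and 5 lay within the Ctrl range, beside Ctrl 3 and 4. Within a genotype the highest library exceeded the lowest 2.42-fold in Ctrl and 2.65-fold in Cdk7_KO. In these bulk samples fewer cells of a type and less RNA per cell cannot be told apart.

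**Figure D1:**
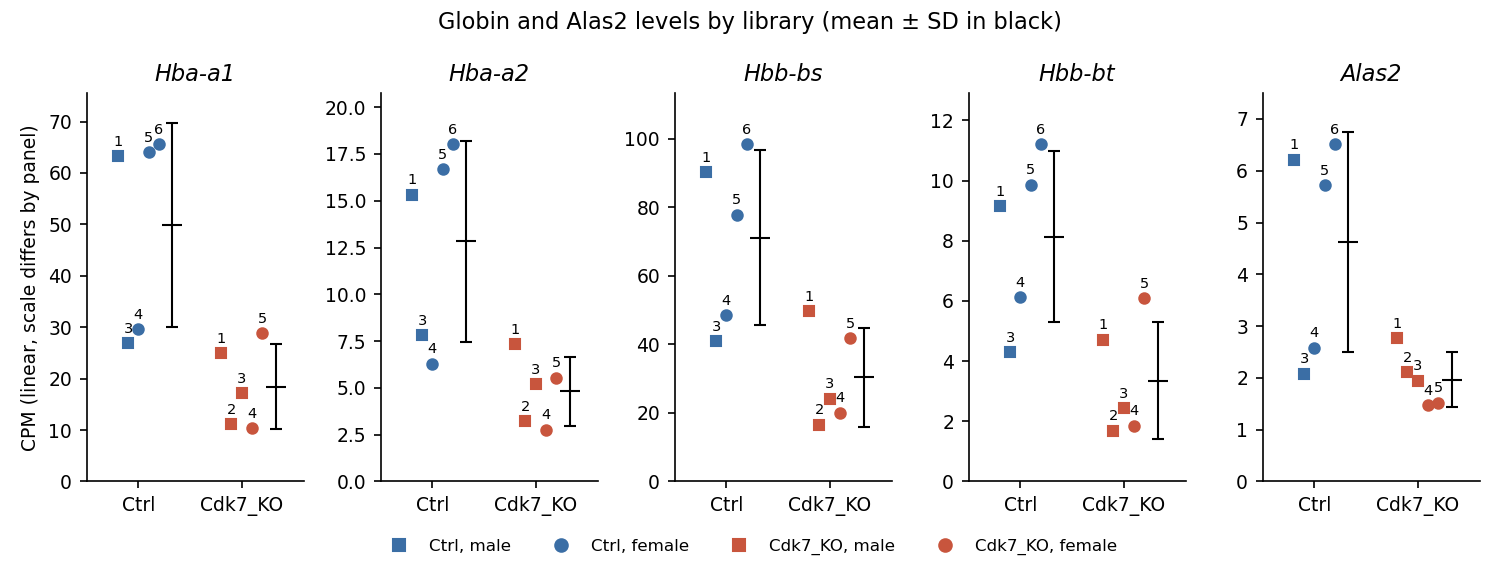
CPM of each member (linear axis from 0, its scale differing by panel) in 5 Ctrl (blue) and 5 Cdk7_KO (red) libraries, numbered by replicate, with squares for males, circles for females and black bars for mean ± SD. Ctrl 3 and 4 lie apart from Ctrl 1, 5 and 6 and near Cdk7_KO 1 and 5 for the globin genes.

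Among the alpha genes, Hba-a1 stood at 63.2, 26.9, 29.6, 64.0 and 65.6 CPM in Ctrl 1, 3, 4, 5 and 6 and at 24.9, 11.1, 17.1, 10.3 and 28.8 CPM in Cdk7_KO 1 to 5. Only Cdk7_KO 5 reached the Ctrl range. Its log2 fold change, Cdk7_KO over Ctrl, was -1.39 (SE 0.34), with an adjusted p of 0.161 in edgeR's quasi-likelihood test and 0.0268 in DESeq2. Hba-a2 stood at 15.3, 7.81, 6.30, 16.7 and 18.0 CPM in Ctrl and at 7.34, 3.20, 5.19, 2.78 and 5.55 in Cdk7_KO. Cdk7_KO 1 alone lay inside the Ctrl range. The log2 fold change of Hba-a2 was -1.37 (SE 0.34), with adjusted p-values of 0.161 in edgeR and 0.00872 in DESeq2.

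Among the beta genes, Hbb-bs had the highest level of all members, with 90.1, 40.9, 48.4, 77.9 and 98.4 CPM in Ctrl and 49.6, 16.6, 24.2, 20.1 and 41.7 CPM in Cdk7_KO. Cdk7_KO 1 and 5 overlapped Ctrl 3 and 4. The log2 fold change of Hbb-bs was -1.18 (SE 0.33), and neither tool called it (adjusted p of 0.167 in edgeR and 0.0580 in DESeq2). Hbb-bt stood at 9.15, 4.29, 6.13, 9.86 and 11.2 CPM in Ctrl and at 4.71, 1.68, 2.43, 1.85 and 6.09 in Cdk7_KO. Again Cdk7_KO 1 and 5 entered the Ctrl range. The log2 fold change of Hbb-bt was -1.23 (SE 0.39), with adjusted p-values of 0.187 in edgeR and 0.0423 in DESeq2.

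Alas2, the enzyme gene, stood at 6.21, 2.08, 2.58, 5.73 and 6.51 CPM in Ctrl and at 2.77, 2.11, 1.95, 1.47 and 1.52 CPM in Cdk7_KO. Ctrl 3 and 4 lay within the Cdk7_KO range, below Cdk7_KO 1 and above Cdk7_KO 3, 4 and 5. These levels rest on 35 to 176 counts per library. The log2 fold change of Alas2 was -1.19 (SE 0.35), with adjusted p-values of 0.178 in edgeR and 0.0409 in DESeq2.

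At an edgeR adjusted p under 0.05, 0 of the 5 members were called, and so were 0% of the 15578 genes tested. At an unadjusted edgeR p under 0.05, 5 members were lower and 0 higher, where 10.5% of all genes were lower and 4.90% higher. All 5 fold changes were negative, as were 47.5% of those of all genes. DESeq2 called 4 of 5 lower, against 3.18% of the genes to which it gave an adjusted p. With sex, read from Xist and Ddx3y, as a second factor, edgeR called 2 of 5 lower (Hba-a1 and Hba-a2) against 4.40% of all genes. Of the members, 0 had groups without overlap, against 2.41% of all genes with every Cdk7_KO library below every Ctrl library. The median log2 fold change was -1.23 over the members and 0.01 over all genes tested. The 5 genes are not independent measurements, since 4 share reads in pairs. In the 5 male libraries alone, where 2 of 5 members were lower at an unadjusted p under 0.05, the members' median was -1.12, and in the 5 female libraries alone it was -1.36.

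Compared per length, the levels kept one order. Per kilobase of transcript, the Ctrl means were 113 ± 40.4 CPM for Hbb-bs, 71.4 ± 28.3 for Hba-a1, 23.2 ± 9.72 for Hba-a2, 11.6 ± 4.04 for Hbb-bt and 2.27 ± 1.04 for Alas2 (SD, n = 5). The spreads of Hbb-bs and Hba-a1 over libraries overlapped, as did those of Hba-a2 and Hbb-bt, but each neighbour was higher than the next in 10 of 10 libraries. Hbb-bs exceeded Hba-a1 per length by 1.35-fold to 2.22-fold within a library, and Hba-a2 exceeded Hbb-bt by 1.16-fold to 2.71-fold. Both orders across chains are subject to the uncertain split between copies and to the transcript models. That of Hba-a1 has 699 bases, of which 196 precede the start codon, against 554 and 35 for Hba-a2.

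No difference in the balance of the chains was detected between genotypes. The ratio of alpha to beta counts was 0.791, 0.769, 0.658, 0.920 and 0.763 in Ctrl and 0.593, 0.784, 0.840, 0.596 and 0.719 in Cdk7_KO. The group means were 0.780 ± 0.0936 and 0.707 ± 0.111 (SD, n = 5 each), and their log2 difference of -0.15 gave p = 0.254 in a two-sided exact permutation test (0.603 after Benjamini-Hochberg adjustment over 4 ratios, smallest possible p 0.0079). Without Ctrl 5 the difference was -0.09, and over the libraries left out in turn it ranged from -0.22 to -0.09. Alpha chains made up 37.2% (95% Wilson interval 35.4% to 39.2%) of globin counts in Cdk7_KO 1 and 47.9% (46.5% to 49.3%) in Ctrl 5, the lowest and highest of the 10 libraries, so that single libraries differed by more than counting error. These intervals cover counting error only.

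Within the alpha pair, the share of Hba-a1 was 79.7% ± 1.92 for Ctrl and 78.9% ± 2.89 for Cdk7_KO (SD over 5 libraries each, exact permutation p = 0.603, adjusted 0.603). Within the beta pair, Hbb-bs took 89.7% ± 0.949 and 90.4% ± 1.76 (exact permutation p = 0.460, adjusted 0.603). Without Cdk7_KO 5 the Hbb-bs difference went from 0.65 to 1.43 percentage points (exact permutation p = 0.0397, adjusted 0.0952). Cdk7_KO 5 had the highest Hba-a1 share, 83.9%, and the lowest Hbb-bs share, 87.3%. Hbb-bs shares in Cdk7_KO 1 to 4 lay above every Ctrl library, the nearest being 90.81% in Cdk7_KO 2 against 90.78% in Ctrl 1. Per 1000 globin counts there were 31.4 ± 3.92 Alas2 counts in the Ctrl libraries and 39.4 ± 16.9 in the Cdk7_KO libraries (SD, n = 5 each, exact permutation p = 0.516, adjusted 0.603). The wide spread in Cdk7_KO came from Cdk7_KO 2 at 64.7 and Cdk7_KO 5 at 18.5.

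**Figure D2:**
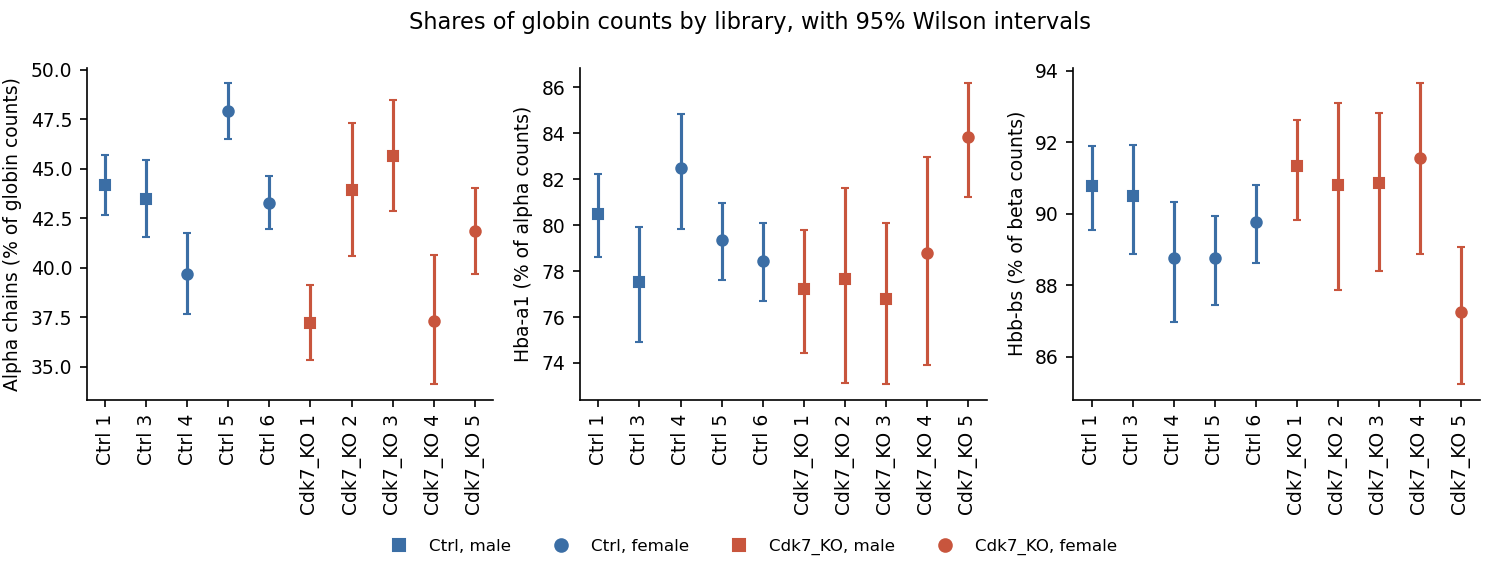
Share of alpha chains in globin counts, of Hba-a1 in alpha counts and of Hbb-bs in beta counts (percent, axes not starting at 0) for each library, with 95% Wilson intervals. The genotypes intermix in the panels of alpha chains and of Hba-a1. For Hbb-bs, Cdk7_KO 1 to 4 lie above every Ctrl library, though their intervals overlap that of Ctrl 1. Cdk7_KO 5 is the highest library for Hba-a1 and the lowest for Hbb-bs.

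The embryonic genes Hba-x, Hbb-bh1 and Hbb-y, and also Hbb-bh2, each had 0 counts in all 10 libraries, which allows up to 0.0114 CPM over the libraries together. The theta-like genes Hbq1a and Hbq1b, a pair of similar copies, had 77 and 147 counts in all. Hbq1b was at 0.450 ± 0.260 CPM in Ctrl and 0.691 ± 0.556 in Cdk7_KO (log2 fold change 0.65, SE 0.77). Neuroglobin (Ngb), a globin of neurons, was at 2.69 ± 1.13 and 2.55 ± 0.540 CPM (log2 fold change -0.04, SE 0.32). Cytoglobin (Cygb), found in many tissues, was at 23.8 ± 2.12 and 24.2 ± 5.01 CPM (log2 fold change 0.08, SE 0.13). Myoglobin (Mb), the oxygen store of muscle, had 3 counts in all. Of the 3 tested genes among these other globins, 0 passed in edgeR, and at an unadjusted p under 0.05 there were 0 in edgeR and 0 adjusted calls in DESeq2.

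The heme synthesis genes followed in addition to Alas2 showed no difference of the size seen for Alas2. Of Alas1, Alad, Uros, Urod, Cpox, Ppox and Fech, which act in this order, 0 of 7 passed in edgeR, 0 passed in DESeq2 and 0 had an unadjusted edgeR p under 0.05. Their median log2 fold change was -0.04, and their summed level was 149.0 to 165.9 CPM in Ctrl and 144.7 to 161.3 CPM in Cdk7_KO. Alas1 was at 24.1 ± 3.68 CPM in Ctrl and 22.3 ± 3.09 in Cdk7_KO, with a log2 fold change of -0.07 (95% interval -0.34 to 0.20). For Alas2 the interval was -1.95 to -0.42. Between these 2 synthases the difference in response was not tested. The largest of the 7 by size was that of Uros, uroporphyrinogen synthase, at 0.23 (95% interval -0.04 to 0.50). Alad was at 0.09, Cpox at 0.07, Urod at -0.05, Ppox at -0.07 and Fech, the ferrochelatase that inserts iron, at -0.04.

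**Figure D3:**
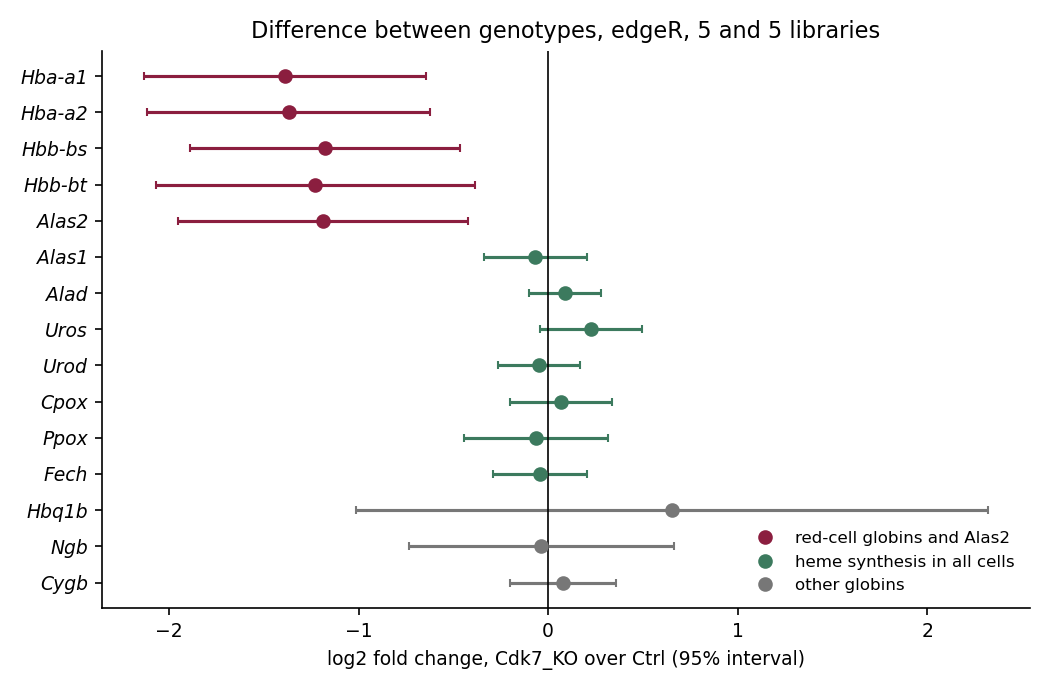
log2 fold change, Cdk7_KO over Ctrl, with 95% intervals from edgeR, for the 5 members (dark red), 7 heme synthesis genes (green) and 3 other globins (grey). The members lie between -1.39 and -1.18, and every heme synthesis interval includes 0.

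Of 22 genes of heme and iron transport and breakdown, 0 passed in edgeR, 5 were lower and 1 higher at an unadjusted p under 0.05, and DESeq2 called 2 lower. Their median log2 fold change was -0.06. The most abundant were the ferritin genes Ftl1, at 604 ± 97.4 CPM in Ctrl and 555 ± 126 in Cdk7_KO, and Fth1, at 471 ± 116 and 414 ± 37.5, followed by the heme-binding Pgrmc1 at 270 ± 19.6 and 286 ± 13.6 (SD, n = 5 each). The 2 called by DESeq2, named after their values were seen, were the iron reductase gene Steap3 (log2 fold change -1.54, adjusted p of 0.0312 in DESeq2 and 0.178 in edgeR) and Flvcr2 (-1.63, adjusted p of 0.0487 in DESeq2 and 0.198 in edgeR). Steap3 stood at 4.43 ± 3.06 CPM in Ctrl (median 3.49, highest 9.83) and 1.48 ± 0.755 in Cdk7_KO. Flvcr2 stood at 6.16 ± 5.43 CPM in Ctrl (median 5.69, highest 15.3) and 1.93 ± 0.960 in Cdk7_KO. For both genes the groups overlapped.

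Red-cell genes differed widely in level. The 5 described next were named after their values were seen. Rhag had 0 counts. Slc4a1, the band 3 anion exchanger, had 78 counts in 6 libraries, and Epb42 had 10 in 1 Ctrl library. These 3 summed to between 0 and 2.07 CPM in Ctrl and between 0 and 0.294 CPM in Cdk7_KO. Gypc (glycophorin C) had counts in 10 of 10 libraries, with 1.94 ± 0.734 CPM in Ctrl and 0.626 ± 0.578 in Cdk7_KO (SD, n = 5 each), a log2 fold change of -1.58 (SE 0.59) and adjusted p-values of 0.235 in edgeR and 0.123 in DESeq2. Car2, a carbonic anhydrase of red cells and glia, stood at 12.5 ± 4.36 and 5.41 ± 3.15 CPM, with a log2 fold change of -1.17 (SE 0.42) and adjusted p-values of 0.218 in edgeR and 0.0728 in DESeq2. Other genes of the same list went differently. Ermap and Aqp1, also named after their values were seen, had log2 fold changes of 0.53 (SE 0.51) and -0.31 (SE 0.52). Of the 18 red-cell membrane and maturation genes tested, 10 had negative fold changes. Of the erythroid transcription factors, named after their values were seen, Gata1 and Gfi1b had 0 counts. Klf1 had 35 counts in 5 Ctrl libraries and 6 in 2 Cdk7_KO libraries. Nfe2 had 6 counts in 1 Ctrl library and 3 in 2 Cdk7_KO libraries. Klf1 and Nfe2 were not abundant enough to test. The full list of 31 red-cell membrane and maturation genes, of which 18 were tested, includes genes that neurons also express, such as its most abundant, Add2, Mkrn1 and Tmcc2, and its median log2 fold change was -0.01. Its sum was 1819 to 2034 CPM in Ctrl and 1937 to 2078 CPM in Cdk7_KO. In it 0 genes passed in edgeR, 4 were lower and 2 higher at an unadjusted p under 0.05, and DESeq2 called 1, Mkrn1, higher. The erythroid factor list had 9 tested genes, led by Bcl11a, Ldb1 and Kit, which neurons also express. Of these 0 passed in edgeR or DESeq2, 5 were lower at an unadjusted edgeR p under 0.05, and the median was -0.83. The 5, named after their values were seen, were Tal1 (-1.61), Epor (-1.25), Myb (-0.97), Lmo2 (-0.86) and Sox6 (-0.83). Bcl11a, Ldb1, Zfpm1 and Kit were at 0.16, 0.09, 0.20 and -0.15. With 1 library left out in turn, the median ranged from -0.895 (without Cdk7_KO 1) to -0.38 (without Ctrl 1, where 2 genes were lower at an unadjusted p under 0.05).

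Marker lists of other cells that can be carried into a sort were also lower on average. All 16 endothelial and pericyte genes had negative fold changes and an unadjusted edgeR p under 0.05, with a median of -1.62, while 0 passed in edgeR and DESeq2 called 1. Without Ctrl 1, 16 of 16 were still negative, 7 had an unadjusted p under 0.05 and the median was -0.82; the mean sum in Ctrl went from 651.1 to 393.6 CPM, against 213.6 in Cdk7_KO. The members' median without Ctrl 1 was -1.17. The endothelial sum was 273.9 to 1681 CPM in Ctrl and 79.5 to 376.7 CPM in Cdk7_KO, and the most abundant were Rgs5, Cldn5 and Slc2a1. The 12 genes of astrocytes and radial glia, led by Fabp7, Slc1a3 and Vim, had a median of -1.07 and sums of 828.3 to 1494 CPM and 212.0 to 873.6 CPM, with 0 called by edgeR, 12 lower at an unadjusted p under 0.05 and 4 called by DESeq2. The 12 microglia and macrophage genes, led by Csf1r, Cx3cr1 and C1qc, had a median of -0.85, with sums of 120.1 to 434.1 CPM and 60.1 to 191.6 CPM, 0 called by either tool and 6 lower at an unadjusted p under 0.05. Without Ctrl 3 the microglial median was -0.46 and 1 gene was lower at an unadjusted p under 0.05, and that count was 2, 1 and 1 without Cdk7_KO 2, 4 and 5. Medians were -0.80 over 8 oligodendrocyte lineage genes (Pdgfra, Olig1, Cspg4) and -0.86 over 10 interneuron genes (Dlx1, Dlx2, Gad1), and 0.31 over 11 projection neuron genes (Neurod2, Tbr1, Cux1). In these lists 0 genes passed in edgeR, and DESeq2 called 1, of the oligodendrocyte lineage. At an unadjusted edgeR p under 0.05, 6 oligodendrocyte lineage and 0 interneuron genes were lower, and 3 projection neuron genes were higher. With 1 library left out in turn, the oligodendrocyte count ranged from 3 (without Ctrl 5 or Cdk7_KO 4) to 7 (without Cdk7_KO 1). That of interneurons ranged from 0 to 5 (without Cdk7_KO 1) and was 4 without Ctrl 1. Interneuron sums overlapped widely, at 80.6 to 389.5 CPM in Ctrl and 23.1 to 263.5 CPM in Cdk7_KO. The part of these cells in the globin difference was not tested.

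Library by library, Ctrl 1 had the highest endothelial sum, 1681 CPM, and the globin sum next below that of Ctrl 6 (177.8 against 193.3 CPM), while Ctrl 6 had 301.3 endothelial CPM. Cdk7_KO 4 had the lowest endothelial and microglial sums, 79.5 and 60.1 CPM, and the globin sum next above the lowest, 35.0 CPM. Ctrl 3 had the highest microglial sum, 434.1 CPM, with the lowest globin sum of the Ctrl libraries, 79.9. Blood leukocyte genes, led by S100a9, Ltf and S100a8, summed to at most 3.99 CPM in Ctrl and 1.17 in Cdk7_KO, and 0 of 15 were abundant enough to test. Platelet genes, led by Itgb3, Itga2b and Pf4, summed to 3.11 to 10.9 CPM in Ctrl and 1.85 to 3.87 CPM in Cdk7_KO.

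**Figure D4:**
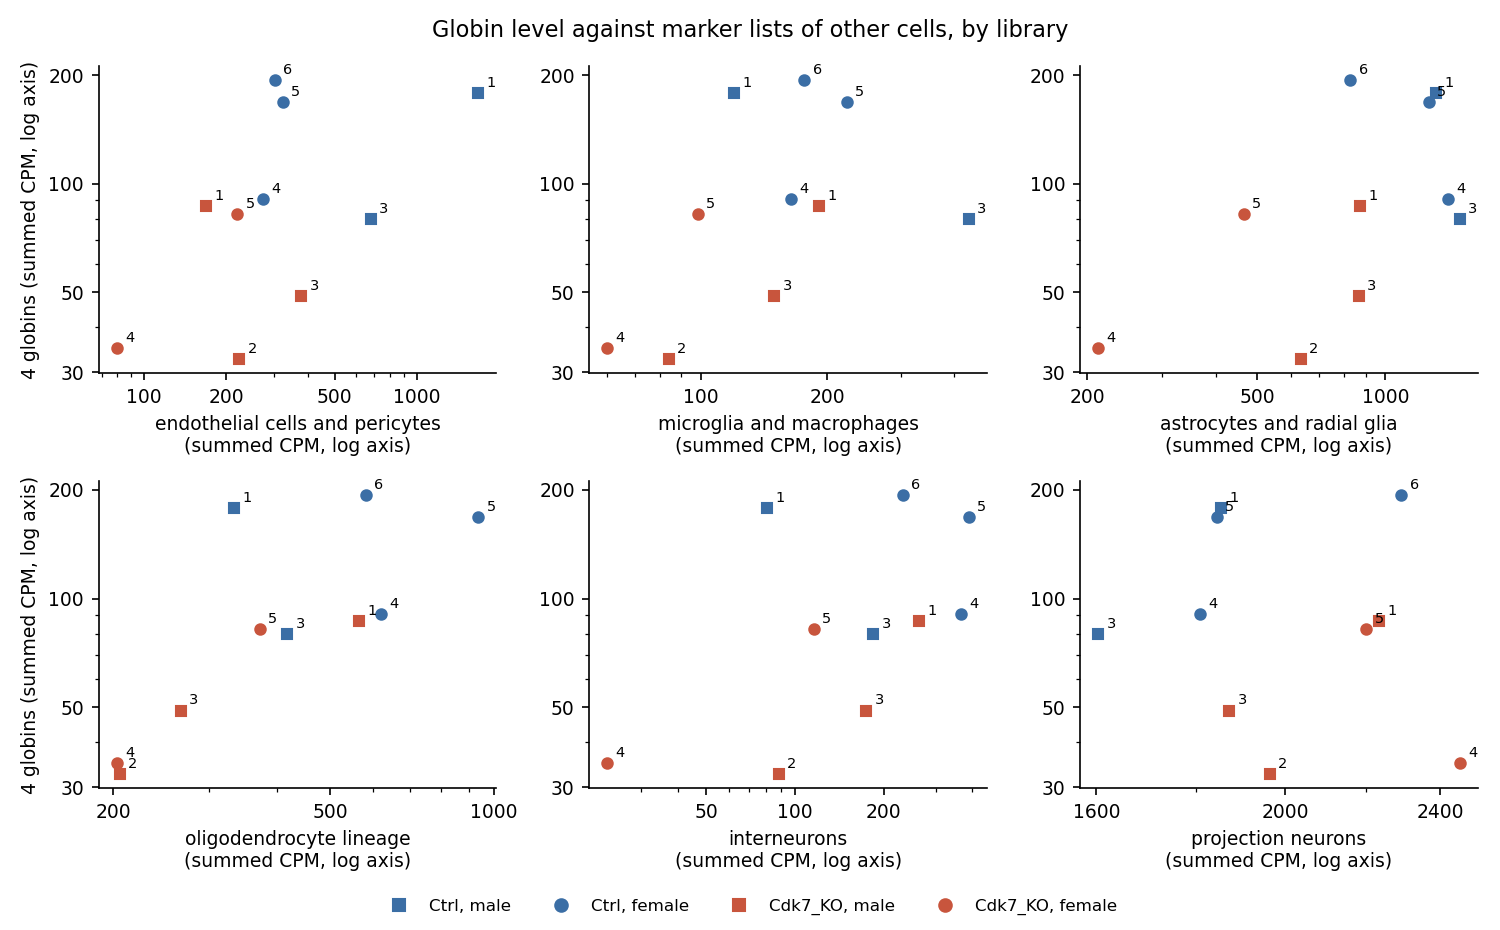
Summed CPM of the 4 globin genes (log axis) against summed CPM of 6 marker lists (log axes) for 10 libraries, blue for Ctrl and red for Cdk7_KO, squares for males and circles for females, numbered by replicate. Ctrl 1 stands far to the right for endothelial genes at 1681 CPM, while Ctrl 6 has the highest globin sum, 193.3 CPM.

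Across the 10 libraries the members varied together, given here as a description without a test. On log2(CPM + 1), Pearson's r between globin genes lay between 0.925 (Hba-a2 and Hbb-bt) and 0.980 (Hba-a1 and Hbb-bt, and Hbb-bs and Hbb-bt), and between Alas2 and the globin genes between 0.808 and 0.922. After each genotype's mean was removed, r between Alas2 and a globin gene lay between 0.595 and 0.835. The libraries share their totals, and the copies share reads. Of 12832 genes with a mean of at least 1 CPM, Alas2 ranked 50 in likeness to the summed globin level (r = 0.866, n = 10). The 10 genes most like it, leaving out the members, were Pdcd6ip (r = 0.940), Slc39a10, Kif9, Gsn, Dcbld1, Ddb1, Enpp2, Pcsk6, Ptpn14 and Pde7b (r = 0.910).

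Library totals lay between 23497621 and 31233466 counts. The targeted gene, Cdk7, was at 15.7 ± 4.00 CPM in Ctrl (lowest 10.1) and 5.16 ± 1.30 CPM in Cdk7_KO (highest 7.07), so the groups did not overlap. Its log2 fold change was -1.54 (SE 0.22), with an adjusted p of 0.161 in edgeR and 1.41e-07 in DESeq2. Ctrl held 2 male and 3 female libraries and Cdk7_KO 3 male and 2 female.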

How the data were processed

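RNA of sorted EYFP-positive cells from 10 mice was sequenced, and the authors deposited whole-number counts per gene, not normalized. Per the labels' protocols, RNA was polyA-selected and libraries came from a directional kit. The submitters' processing notes name STAR, Salmon and GRCm38. Which step counted reads, its strand setting and its treatment of multi-mapping reads were not given in the sources used here. The members and lists were chosen with earlier results of these data known.

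The main test was that of edgeR 4.0.16 in R 4.3.3 (filterByExpr by group with a minimum count of 10, TMM, quasi-likelihood test, genotype alone, Benjamini-Hochberg over 15578 genes, threshold 0.05). DESeq2 1.42.0 on the same genes (305 adjusted p-values missing) and voom (limma 3.58.1) were alternatives, besides other scalings, filters, libraries left out, sex as a factor and the replicate block. Standard errors were taken from the F statistic. CPM uses library totals. Ratios were tested by exact permutation (252 assignments, Python 3.11.15, scipy 1.17.1). The model fit was tested on simulated data. A count of 0 allows 3 counts. Of 55573 IDs, 55394 were in GENCODE M21, used for coordinates and transcripts, and all 5 members had a RefSeq promoter. No pair of libraries was a copy (smallest chi-square per gene 11.3), and 0 count columns lacked a sample.

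Named genes were the members, Cdk7, all measured other globins and heme synthesis genes, list genes called by edgeR (0), the 3 most abundant genes of each other list, and the 10 genes most like the globin sum (log2(CPM + 1), mean of at least 1 CPM, no predicted or clone models). Some genes of the lists are not reported here and were left out of the lists' counts and sums. Exceptions are marked where they occur.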

Additional observations from a re-analysis of the deposited data

Results flagged for a closer look

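The Hba-a1 share of alpha globin counts in Cdk7_KO 5, 83.9%, lay far above the other 4 Cdk7_KO libraries, which ranged from 76.8% to 78.8%. The Hbb-bs share of beta globin counts in the same library, 87.3%, lay far below the other 4, which ranged from 90.8% to 91.6%. Each was set apart by its gap to the nearest library relative to the range of the group. In all, 20 groups of 5 libraries were examined and 2 had such a library, where chance gives about 1 in 20 groups. Both values depend on how reads matching both copies were assigned.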

How the results depend on the processing

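All 5 members kept a negative fold change under all 22 alternatives, with log2 values from -1.63 (Alas2 in female libraries alone) to -0.84 (Alas2 in male libraries alone). Members called were 4 in DESeq2, 2 with sex as a factor and 1 with the replicate block (Hbb-bs, log2 fold change -0.88, edgeR adjusted p = 0.0468), and 0 in the other alternatives and without any 1 library. Other list genes called were 9 in DESeq2 and 29 with sex as a factor. Cdk7 passed in DESeq2 (-1.54, adjusted p = 1.41e-07), without a filter (-1.54, 0.0393), with sex as a factor (-1.43, 0.00828) and without Cdk7_KO 1 (-1.68, 0.0391); leaving out 1 library gave -1.68 to -1.44. Over all genes, calls numbered 559 in DESeq2, 732 with sex as a factor and 5 with the replicate block, against 0. The cause was not tested. Same-numbered libraries 1, 3, 4 and 5 correlated at -0.169, 0.383, 0.0923 and 0.24 in their deviations. The Cdk7_KO library most like Ctrl 3, 4 and 5 was the same-numbered one, and for Ctrl 1 it was Cdk7_KO 3. In both genotypes libraries 1 and 3 were male and 4 and 5 female, and sex was not removed from the deviations. These values do not settle whether the numbers mark pairs, and the main test did not take them as pairs. With the replicate block, Ctrl 6 and Cdk7_KO 2 had no same-numbered partner, so the genotype contrast rested on libraries 1, 3, 4 and 5. Ctrl 6 had the highest globin sum, 193.3 CPM, and Cdk7_KO 2 the lowest, 32.6 CPM. The SE in that fit was 0.093 for Hbb-bs, 0.139 for Hba-a1 and 0.348 for Alas2. In the main fit these were 0.327, 0.341 and 0.351. The log2 ratio of summed globin means ranged from -1.51 to -1.17. The log2 difference in the alpha to beta ratio ranged from -0.24 to -0.09 and that in Hbb-bs share from 0.32 to 1.43 percentage points. The difference in Hba-a1 share ranged from -2.05 to 1.23 percentage points and that of Alas2 per globin count from -0.20 to 0.53 (log2), so both signs occurred for each. Leaving out single libraries for the marker lists and the erythroid factor list was added after seeing the data. Counts of 35 to 176 per library limit the precision for Alas2.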
